A study of Mus musculus with 18 samples.

Results

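Among the 35441 genes counted in these mouse livers, 7 are markers of lipid-associated macrophages and are described here: Trem2, Gpnmb, Cd9, Spp1, Lgals3, Cd63 and Itgax. They were found in the table by gene symbol, and all 7 were among the 14533 genes with enough reads to test. Liver RNA came from 3 mice in each of 6 groups, with WT, Lipa-/- and rAAV8-treated Lipa-/- mice (here WT, KO and KOT) at 12- and 34-weeks post-injection, which the labels give as 3 and 8 months. All mice were males, and the labels give no age. In KO mice, exon 4 of Lipa was removed in the whole body with a CMV-driven Cre, on a C57BL/6N background. KOT mice carry the same deletion and received rAAV8.hAAT.LIPA by tail vein, a vector in which a hepatocyte-specific promoter drives HA-tagged human LIPA (hLIPA). WT and KO livers came from untreated mice according to the labels. The study states that a single KO mouse of the long experiment was still alive at 34-weeks and that the others were sacrificed at set endpoints. The 3 KO livers labelled 34-weeks were thus not all taken at that time, and the labels do not say which were taken earlier. Comparisons of these KO livers with other groups therefore do not hold the time of sampling equal.

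Lysosomal acid lipase (LAL), the product of Lipa, hydrolyses cholesteryl esters and triglycerides in the lysosome, and in its absence these lipids fill hepatocytes and liver macrophages. Lipid-associated macrophages are a state of macrophages known from fatty liver, adipose tissue and atherosclerotic plaques, in which the cell takes up lipid and debris and raises lysosomal and matrix genes. The markers play different roles in it. TREM2 is the lipid-sensing receptor that marks the state, GPNMB and CD63 are glycoproteins of the late endosome and lysosome, CD9 is a tetraspanin of the cell surface, SPP1 (osteopontin) and LGALS3 (galectin-3) are secreted proteins, and ITGAX (CD11c) is an integrin alpha chain. None of them is confined to macrophages. Spp1 is also a gene of cholangiocytes, Cd9 and Cd63 are abundant in platelets, and Itgax is the usual marker of dendritic cells.

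Each liver had between 17527848 and 25833134 reads on genes, and levels are given as CPM, the reads of a gene relative to the library, with TMM factors that lay between 0.587 and 1.69. The factors differed by group, with 1.165 to 1.69 in KO livers and 0.587 to 0.759 in KOT livers of 12-weeks. They were 0.806 to 1.07 in WT livers and KOT livers of 34-weeks, so comparisons between groups depend in part on the scaling. Murine Lipa was at 202 to 323 CPM in the 6 WT livers and at 16.7 to 37.0 CPM in the 12 livers with the deletion. Transcripts of hLIPA stood at 523 to 2746 CPM in the 6 KOT livers and at 0 reads in the others, except 1 and 23 reads in a pair of WT livers of 34-weeks. KO mouse 5 of 12-weeks has a study code of its own, and since the codes of 12-weeks and 34-weeks differ, time point and study code cannot be told apart. The labels do not say whether livers of a group came from separate litters or cages. The p values measure the spread between livers within groups, pooled over all 6 groups and not only those compared. A gene was called where its adjusted p was under 0.05 and its log2 fold change was above 1 or below -1 (edgeR quasi-likelihood test, Benjamini-Hochberg over all genes tested).

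The promoters are shown because all 7 genes were higher in KO livers. The RefSeq table of promoters holds 8 windows for the 7 genes (Spp1 has a pair of starts), each with 250 bases before and 50 bases after a gene start. Every window matched GRCm39 once and exactly. Short motifs were searched on both strands. GAGGAAG, the core bound by PU.1 and other ETS factors of myeloid cells, was found in 3 windows (Trem2, Spp1 and Cd63) and in 13.6% of the 32851 windows of the table. TGACTCA, the AP-1 motif, was found in 2 windows (Gpnmb and Itgax) and in 5.20% of the table. CACGTG, the E-box core of the CLEAR element of lysosomal genes, was in 0 of the 8 windows and in 7.15% of the table, and TCATGTG, the M-box, was in 0 of the 8 windows and in 3.77% of the table. No match was found in the windows of Cd9 and Lgals3. These letters describe the windows only and no binding was measured. In the stretches printed next, from 5′ to 3′ on the strand of the gene, capitals mark the motif or its reverse complement (CTTCCTC for the ETS core and TGAGTCA for AP-1). The Trem2 stretch is the 120 bases before its start, at chr17:48653309-48653428 (plus strand), with the motif at -41 to -35 from the start. The others are 30 bases around a match. They lie at chr5:104582854-104582883 (Spp1, plus strand, -113 to -107), chr10:128745144-128745173 (Cd63, plus strand, -60 to -54), chr7:127728656-127728685 (Itgax, plus strand, -56 to -50) and chr6:49013450-49013479 (Gpnmb, plus strand, bases 9 to 15 counted from the start). In the GENCODE annotation, which sets some starts differently, the Trem2 stretch touches an exon in 0 of 5 transcripts, whereas part of the stretch is exonic in 4 of 12 transcripts of Spp1, 1 of 41 of Cd63, 5 of 7 of Itgax and 5 of 9 of Gpnmb.
Trem2: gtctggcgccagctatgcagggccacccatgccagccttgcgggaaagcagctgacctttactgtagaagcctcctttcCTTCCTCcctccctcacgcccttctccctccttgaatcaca
Spp1: aaaaccagagGAGGAAGtgtaggagcaggt
Cd63: tagacaagggCTTCCTCaaagggttttctc
Itgax: ccacctcctcTGAGTCAcgctgacaacttc
Gpnmb: caggggcaagTGACTCAtgagcacgagttg

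In KO livers, all 7 markers were higher than in WT livers at both time points. The groups did not overlap for any of them, as was the case in the same direction for 28.6% of the genes tested at 12-weeks and 30.5% at 34-weeks. All 7 were called higher at 12-weeks, where 20.2% of the genes tested were called higher, and all 7 at 34-weeks, where the share was 20.5%. Of the 14533 genes tested, 1317 were called lower at 12-weeks and 2288 at 34-weeks. The median log2 fold change of the 7 markers was 7.77 at 12-weeks and 6.28 at 34-weeks, against medians over all genes tested of 0.02 and -0.03. Cd9 had the smallest log2 fold change of the 7 at each time point and Gpnmb the largest. In bulk liver, a change in the number of macrophages and a change in RNA per macrophage cannot be told apart.

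**Figure D1:**
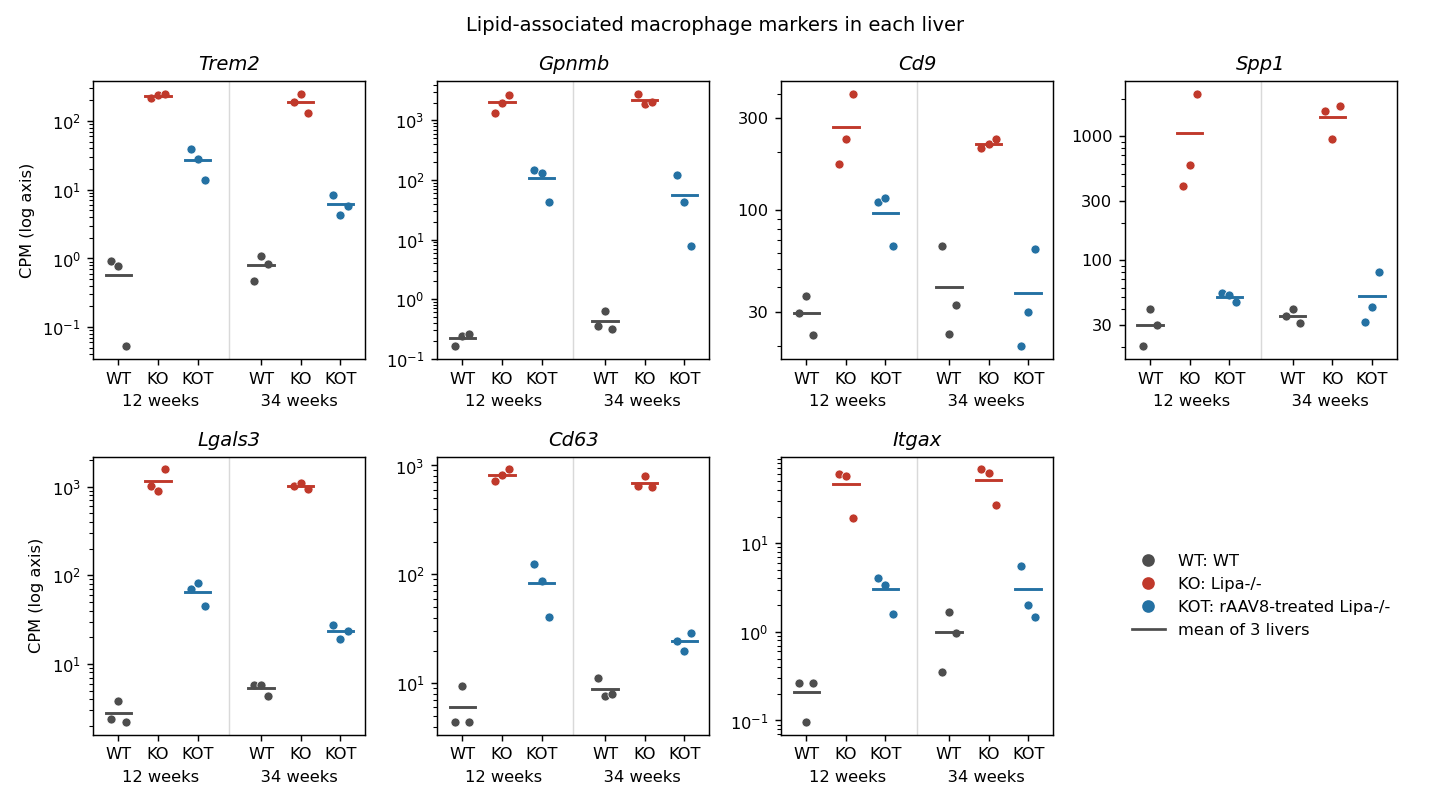
CPM of each marker on a log axis in every liver (points, 3 per group, WT, KO and KOT at 12- and 34-weeks) with the mean of the group as a line. KO livers lie above all WT and KOT livers of the same time point in every panel, and KOT livers of 34-weeks overlap WT livers for Cd9, Spp1 and Itgax.

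Trem2, the receptor, is on the plus strand of chromosome 17 of GRCm39 from 48653429 to 48661175, with 5 exons in its canonical transcript. WT livers held almost none of it. At 12-weeks, it was at 0.911, 0.766 and 0.052 CPM in WT mice 1, 2 and 3, and at 219, 237 and 247 CPM in KO mice 5, 8 and 9. At 34-weeks, WT livers were at 0.472, 1.10 and 0.817 CPM and KO mice 4, 5 and 6 at 190, 251 and 129 CPM. The KO livers of 12-weeks differed from each other by a factor of only 1.13, the narrowest spread of any marker there. The log2 fold change of KO over WT was 8.65 ± 0.64 (SE, adjusted p = 5.86e-08) at 12-weeks and 7.85 ± 0.61 (SE, adjusted p = 1.01e-07) at 34-weeks. The size of these folds rests on few WT reads, 34 in all at 12-weeks and 57 at 34-weeks.

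Gpnmb, a glycoprotein of the late endosome, lies on the plus strand of chromosome 6 from 49013426 to 49047863 and has 11 exons. It had 13 reads in all in the 3 WT livers of 12-weeks (exact Poisson 95% interval 6.92 to 22.2) and 30 reads in those of 34-weeks (20.2 to 42.8), and these intervals cover counting error only. In KO livers, the reads summed to 155969 and 193497. The levels were 1343, 1992 and 2701 CPM in KO mice 5, 8 and 9 of 12-weeks and 2815, 1912 and 2012 CPM in KO mice 4, 5 and 6 of 34-weeks, against 0.161 to 0.262 and 0.311 to 0.631 CPM in WT livers. Its log2 fold change was at position 3 from the top of all genes tested at 12-weeks and at position 1 at 34-weeks, with 13.11 ± 1.07 (SE, adjusted p = 1.55e-07) and 12.31 ± 1.02 (SE, adjusted p = 1.67e-07). The size of these folds rests on the few WT reads.

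Cd63, a tetraspanin of lysosomes and a granule protein of platelets, is on the plus strand of chromosome 10 from 128731528 to 128748709 (8 exons). WT livers held 4.45, 9.48 and 4.40 CPM at 12-weeks and 11.2, 7.61 and 7.98 CPM at 34-weeks. KO livers held 717, 823 and 921 CPM at 12-weeks and 649, 799 and 630 CPM at 34-weeks, so that the lowest KO liver stood far above the highest WT liver at each time. The log2 fold changes were 7.07 ± 0.45 (SE, adjusted p = 2.05e-08) and 6.28 ± 0.44 (SE, adjusted p = 4.71e-08).

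Cd9, the tetraspanin of the cell surface, is on the minus strand of chromosome 6 from 125437210 to 125471778 (8 exons). Unlike most of the markers, it was well measured in WT livers, at 29.4, 36.1 and 22.8 CPM at 12-weeks and 65.1, 23.1 and 32.5 CPM at 34-weeks. KO livers held 174, 234 and 399 CPM at 12-weeks and 210, 219 and 232 CPM at 34-weeks. WT mouse 1 of 34-weeks was the highest WT liver and KO mouse 9 of 12-weeks the highest KO liver. The log2 fold changes were 3.19 ± 0.46 (SE, adjusted p = 4.19e-05) and 2.46 ± 0.45 (SE, adjusted p = 0.000254). They ranked at position 1180 and 1597 from the top among all genes tested, and the other markers were at position 383 or nearer to the top.

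Lgals3, the galectin, lies on the plus strand of chromosome 14 from 47605208 to 47623624 (6 exons). Its levels were 2.36, 3.78 and 2.20 CPM in WT livers and 1027, 892 and 1567 CPM in KO livers at 12-weeks. At 34-weeks, they were 5.78, 5.75 and 4.32 CPM in WT livers and 1019, 1087 and 930 CPM in KO livers. The standard errors of its log2 fold changes were the smallest among the markers, with 8.70 ± 0.39 (SE, adjusted p = 1.08e-09) at 12-weeks and 7.58 ± 0.37 (SE, adjusted p = 4.33e-09) at 34-weeks.

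Spp1, which encodes the secreted phosphoprotein osteopontin, is on the plus strand of chromosome 5 from 104582165 to 104589235 (7 exons). WT livers held 20.1, 40.0 and 30 CPM at 12-weeks and 35.2, 40.2 and 31.0 CPM at 34-weeks. KO livers of 12-weeks were uneven, with 397 and 583 CPM in mice 5 and 8 and 2206 CPM in mouse 9, a coefficient of variation of 93.7%. At 34-weeks, KO livers held 1585, 945 and 1740 CPM. The log2 fold changes were 5.14 ± 0.59 (SE, adjusted p = 4.35e-06) and 5.33 ± 0.60 (SE, adjusted p = 2.40e-06). Without mouse 9, the value of 12-weeks was 4.03 and still called (adjusted p = 1.87e-06).

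Itgax, the alpha chain that pairs with the beta2 chain Itgb2, is on the plus strand of chromosome 7 from 127728668 to 127749829 (30 exons). WT livers of 12-weeks had 12 reads in all (exact Poisson 95% interval 6.2 to 21.0), which is 0.096 to 0.268 CPM, and those of 34-weeks had 0.354, 1.66 and 0.973 CPM. KO livers held 61.1, 58.0 and 19.1 CPM at 12-weeks and 68.1, 61.7 and 27.0 CPM at 34-weeks. KO mouse 9 of 12-weeks was the highest of its group for 6 of the 7 markers and the lowest for Itgax. The log2 fold changes were 7.77 ± 0.79 (SE, adjusted p = 1.25e-06) and 5.66 ± 0.66 (SE, adjusted p = 3.78e-06). Other annotated genes overlap Trem2, Gpnmb, Cd9, Spp1 and Cd63, mostly on the opposite strand. The library type was detected by the aligner, and whether strand was used to tell such reads apart is not given in the sources used here.

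Levels of different markers were compared per length, as TPM (the deposited values per gene length and library). In WT livers of 12-weeks, the order by mean TPM was Cd9 (25.4 ± 2.68, SD), Spp1 (21.6 ± 6.33), Cd63 (6.10 ± 2.29), Lgals3 (2.20 ± 0.41), Trem2 (0.525 ± 0.323), Gpnmb (0.064 ± 0.026) and Itgax (0.048 ± 0.026). Only Cd9 with Spp1 and Gpnmb with Itgax overlapped as neighbours. In KO livers of 12-weeks, the order was Lgals3 (1367 ± 474), Cd63 (1206 ± 218), Spp1 (1103 ± 1086), Gpnmb (701 ± 280), Cd9 (327 ± 158), Trem2 (322 ± 39.7) and Itgax (14.7 ± 7.18), and every pair of neighbours overlapped except Trem2 and Itgax. At 34-weeks, the KO order began with Spp1 (1968 ± 734) and Lgals3 (1606 ± 316), again overlapping, and ended with Itgax (23.2 ± 12.5). Cd9 thus stood at position 1 of 7 in WT livers and at position 5 in KO livers at both times.

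The rest of the lipid-associated macrophage genes and the pathways around the markers were described from lists of known genes. Of 16 other lipid-associated macrophage genes tested, 12 were called higher in KO livers at 12-weeks (list median 3.04) and 11 at 34-weeks, where Plin2, a lipid droplet coat protein, was lower (log2 fold change -1.78). The osteoclast-type cathepsin Ctsk (7.76), the elastase Mmp12 (7.28), the actin capping protein Capg (7.20), the proton pump subunit Atp6v0d2 (7.05) and the lipoprotein lipase gene Lpl (5.19) rose at 12-weeks, whereas Apoe (-0.05) and Ctsl (0.74) were not called. Around TREM2, 8 of 9 genes were called higher at 12-weeks and 9 of 9 at 34-weeks. They include the adaptor Tyrobp (5.14 and 3.69) and the kinase Syk (4.35 and 3.65), while the sheddase Adam10 was called at 34-weeks (1.15) and not at 12-weeks (0.96). Among the relatives of Trem2, the neutrophil and monocyte receptor Trem1 rose at both times (6.32 and 3.65), and 4 of 5 and 2 of 5 relatives were called. Trem1 was low in all groups. Its mean was 0.0174 and 0.0851 CPM in WT livers, and 1.82 ± 1.69 (SD) and 1.03 ± 0.229 CPM in KO livers. The size of its folds rests on very few WT reads.

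For the secreted and adhesion markers, receptors and partners moved in part. Of 7 osteopontin receptor genes, 4 were called higher at 12-weeks and 5 at 34-weeks, with Cd44 at 4.30 and 3.56 and the integrin chain Itgb1 at 0.27 and 0.40, not called. Of the beta2 integrin genes tested, 3 of 3 and 2 of 3 were called higher, with the shared beta chain Itgb2 at 5.46 and 4.17 and Itgam at 6.34 and 5.69. The tetraspanins were divided. Of 10, 5 were called higher and 1 lower at 12-weeks, and 4 higher and 2 lower at 34-weeks, with the leukocyte genes Cd53 (4.62 and 3.89) and Cd37 (3.87 and 3.53) higher and Tspan33 lower (-1.70 and -1.13). Among 5 galectin genes and ligands tested, Lgals1 rose at both times (4.18 and 1.69) and the galectin-3 binding protein Lgals3bp at 12-weeks (1.04), whereas Lgals8 (-1.01) and Lgals9 (-1.42) fell at 34-weeks. For GPNMB, neither the paralog Pmel nor the syndecan Sdc4 was called at either time. Mitf, Tfeb and Tfec, 3 of the 4 MiT/TFE factors that drive lysosomal genes, were called higher at both times, with log2 fold changes from 1.08 to 2.15, and Tfe3 was not called (0.69 and 0.76).

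Markers of the cell types that could carry these transcripts moved as well. Of 8 pan-macrophage genes, 8 were called higher in KO livers at 12-weeks and 7 at 34-weeks, and their summed level was 3250 to 6750 CPM in KO livers against 96.4 to 205 CPM in WT livers at 12-weeks, and 2690 to 4640 against 167 to 303 CPM at 34-weeks. All 6 recruited monocyte genes were called higher at each time, with sums of 55.0 to 370 and 90.4 to 155 CPM in KO livers against 1.52 to 1.98 and 3.78 to 5.79 CPM in WT livers. Resident Kupffer cell genes were mixed, with 5 of 10 higher and 2 lower at 12-weeks and 3 higher and 4 lower at 34-weeks. The complement genes C1qa, C1qb and C1qc rose at both times and the scavenger receptor Cd163 (-5.05 and -4.74) and Timd4 (-3.62 and -3.84) fell at both times.

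For Spp1, 3 of 6 cholangiocyte genes were called higher at 12-weeks and 5 of 6 at 34-weeks, with Krt19 at 0.17 (not called) and 2.17, and the summed level was 29.7 to 56.4 and 42.5 to 76.4 CPM in KO livers against 10.0 to 19.6 and 9.73 to 13.7 CPM in WT livers. The KO liver with the highest Spp1 of 12-weeks, mouse 9, held 29.8 CPM of this list and mouse 5, with the lowest Spp1, held 56.4 CPM. For Cd9 and Cd63, 1 of 5 platelet genes was called at each time (Pf4), and the list summed to 10.8 to 12.8 and 8.71 to 13.2 CPM in KO livers against 1.94 to 3.27 and 4.14 to 5.13 CPM in WT livers. For Itgax, 2 of 7 dendritic cell genes were called higher at 12-weeks and 1 of 7 at 34-weeks, and their sums were 6.91 to 8.70 and 5.62 to 8.01 CPM in KO livers against 3.61 to 5.65 and 5.43 to 6.66 CPM in WT livers. Neutrophil genes were called higher as well, 6 of 6 and 4 of 6, with sums of 121, 166 and 1540 CPM in KO livers of 12-weeks. The highest value was that of mouse 9, whose Spp1, Cd9, Gpnmb and Lgals3 also were the highest and whose recruited monocyte sum was 370 CPM against 55.0 and 55.1 CPM in mice 8 and 5. In WT livers of 12-weeks, the neutrophil genes Ngp, Camp and Ly6g were listed at 0. Of the other lists, 5 of 8 stellate cell genes were called higher and 1 lower at 12-weeks and 6 higher and 2 lower at 34-weeks. The counts were 4 of 5 higher at both times for T and NK cells, 1 higher and 2 lower and then 2 higher and 2 lower of 6 for sinusoidal endothelium, 0 and 1 lower of 3 for B cells, and 2 and 4 lower of 6 for hepatocytes. Over all 14533 genes tested, 1317 were called lower at 12-weeks and 2288 at 34-weeks. The part of these cell types in the level of each marker was not tested.

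To set each marker beside the macrophage signal of its own liver, the mean log2 CPM of the 8 pan-macrophage genes was subtracted from that of the marker (prior count 0.5). This log2 ratio is a description without a test. Gpnmb rose far more than the list, with a difference between KO and WT means of 9.29 at 12-weeks and 9.58 at 34-weeks. Trem2 (5.58 and 5.15), Lgals3 (5.01 and 4.85), Itgax (3.89 and 3.09) and Cd63 (3.47 and 3.56) were also higher relative to the list, with no overlap between the livers of the groups. For Spp1, the difference was 1.10 with overlap at 12-weeks and 2.55 without overlap at 34-weeks. For Cd9, the differences were -0.56 and -0.14 and the livers overlapped. The ratio depends on the reference. Against Cd68 alone, a lysosomal glycoprotein that itself had log2 fold changes of 6.25 and 5.37, the median difference over the 7 markers was 1.22 and 0.94 instead of 3.89 and 3.56, and Spp1 turned to -1.57 and -0.06.

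**Figure D2:**
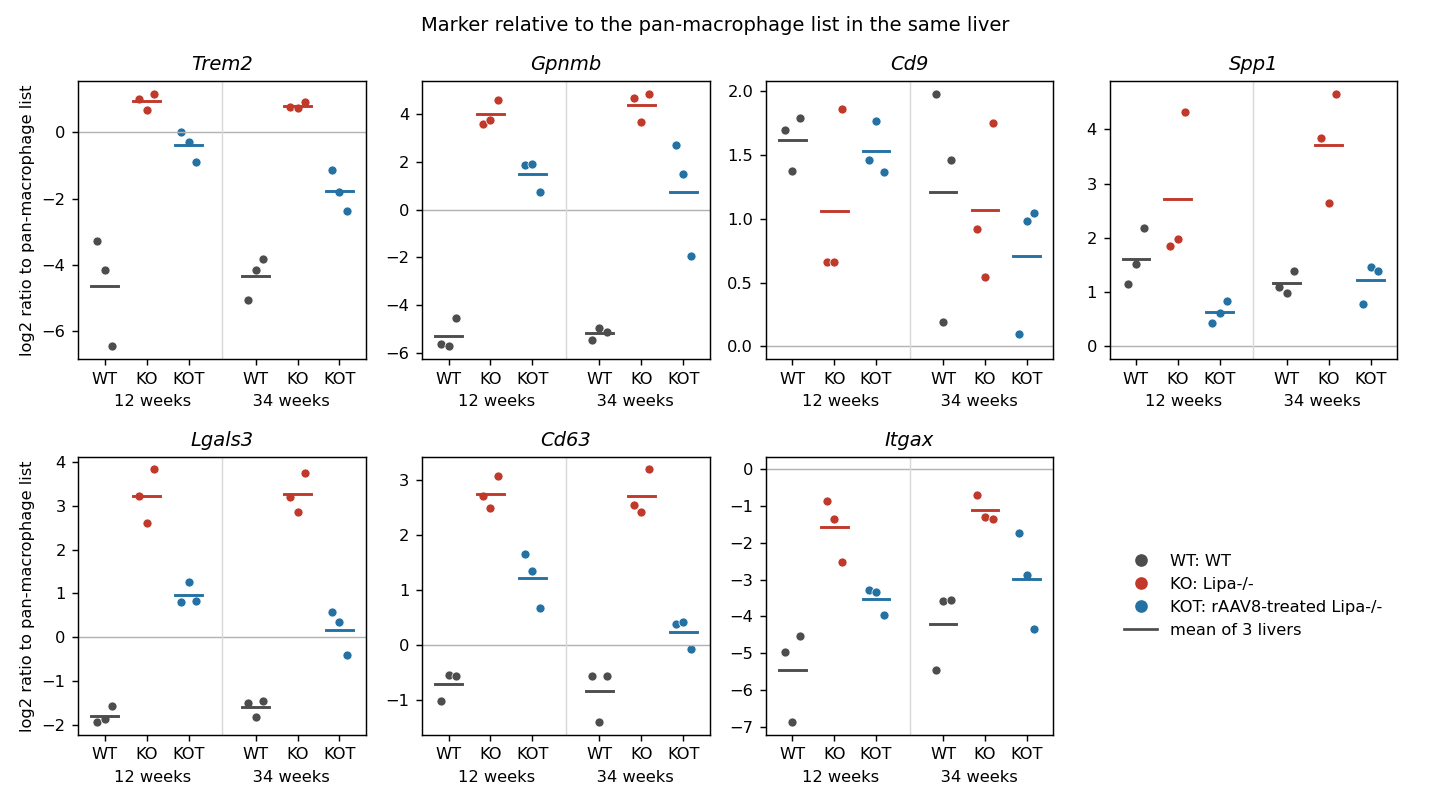
Log2 ratio of each marker to the mean of 8 pan-macrophage genes in the same liver (points, 3 livers per group, line: mean), with the scale set separately in each panel. The groups separate clearly for Gpnmb, Trem2, Lgals3 and Cd63, whereas the livers overlap throughout for Cd9.

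In rAAV8-treated livers, all 7 markers were lower than in KO livers at both time points, with no overlap between the groups, as for 32.8% and 28.5% of the genes tested. All 7 were called lower at 12-weeks, where 25.3% of the genes tested were called lower, and all 7 at 34-weeks, where the share was 18.6%. The median log2 fold change of the markers was -3.93 and -4.83, and that of all genes tested -0.19 and 0.03. These comparisons use the same KO livers as those with WT. The mean level in KOT livers as a percentage of the KO mean was 5.29% and 2.53% for Gpnmb, 5.64% and 2.30% for Lgals3 and 6.56% and 5.79% for Itgax at 12- and 34-weeks. Trem2 was at 11.6% and 3.25%, Cd63 at 10.2% and 3.52%, and Cd9 at 36.1% and 17.0%. Spp1 was at 4.76% and 3.6%, and the value of 12-weeks rests in part on the high Spp1 of KO mouse 9, without which the log2 fold change of KOT over KO was -3.28 instead of -4.39 and was still called (adjusted p = 1.85e-05).

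In single livers of 12-weeks, Trem2 was at 39.8, 28.0 and 13.8 CPM in KOT mice 10, 11 and 12, Gpnmb at 146, 131 and 42.1 CPM, and Cd63 at 125, 86.2 and 40.7 CPM. Mouse 12 was the lowest of the group for 7 of 7 markers. The log2 fold changes of KOT over KO were -3.11 ± 0.47 (SE, adjusted p = 7.31e-05) for Trem2, -4.24 ± 0.71 (SE, adjusted p = 0.000162) for Gpnmb and -3.29 ± 0.38 (SE, adjusted p = 7.07e-06) for Cd63. Lgals3 was at 69.3, 82.2 and 45.2 CPM (-4.15 ± 0.31, adjusted p = 3.29e-07), and Spp1 at 53.8, 52.4 and 45.5 CPM (-4.39 ± 0.57, adjusted p = 1.85e-05). Itgax was at 4.08, 3.37 and 1.61 CPM (-3.93 ± 0.61, adjusted p = 8.32e-05). Cd9 was at 110, 116 and 65.6 CPM (-1.47 ± 0.43, adjusted p = 0.00908), and without KO mouse 9 its difference was -1.07 and no longer called (adjusted p = 0.0528).

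At 34-weeks, Trem2 was at 8.45, 4.26 and 5.84 CPM in KOT mice 9, 11 and 12 (log2 fold change to KO -4.94 ± 0.52, SE, adjusted p = 2.21e-06). Lgals3 was at 27.6, 19.1 and 23.2 CPM (-5.44 ± 0.33, adjusted p = 5.63e-08) and Cd63 at 24.2, 20 and 28.8 CPM (-4.83 ± 0.41, adjusted p = 4.10e-07). The coefficient of variation was 18.4% for Lgals3 and 18.2% for Cd63 but 34.3% for Trem2. Gpnmb was uneven, at 121, 42.1 and 7.94 CPM, a coefficient of variation of 102%. Its log2 fold change was -5.30 ± 0.75 (SE, adjusted p = 3.23e-05), and -6.49 without mouse 9 (adjusted p = 1.61e-05). Spp1 was at 32.0, 41.6 and 80.1 CPM (-4.80 ± 0.58, adjusted p = 7.86e-06), Cd9 at 19.8, 29.7 and 63.0 CPM (-2.55 ± 0.45, adjusted p = 0.00024) and Itgax at 5.57, 2.02 and 1.48 CPM (-4.10 ± 0.60, adjusted p = 4.79e-05). Mouse 9 was the highest for Gpnmb, Trem2, Itgax and Lgals3, and mouse 12 for Spp1, Cd9 and Cd63. Without mouse 9, Itgax was at -4.91 (adjusted p = 5.09e-05), and without mouse 12, Cd9 was at -3.18 (adjusted p = 8.7e-05). In mouse 12, neutrophil genes summed to 724 CPM against 2.8 and 1.64 CPM in mice 9 and 11, recruited monocyte genes to 75.2 CPM against 7.24 and 4.64 CPM, and platelet genes to 31.1 CPM against 2.40 and 3.17 CPM. Their part in Spp1 and Cd9 was not tested.

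**Figure D3:**
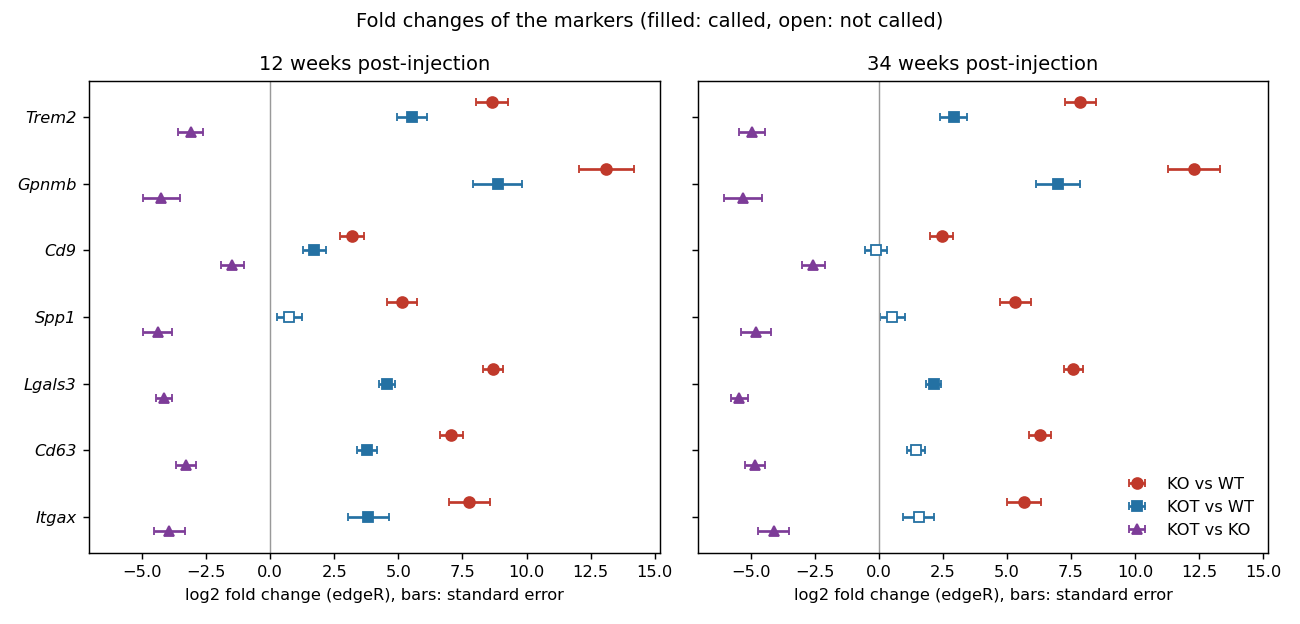
Log2 fold change of each marker (edgeR, bars: standard error) for KO over WT, KOT over WT and KOT over KO at 12-weeks (left) and 34-weeks (right), with filled symbols for called differences. KO lies right of zero and KOT over KO left of zero for all 7 markers, and KOT over WT moves towards zero at 34-weeks, where Cd9, Spp1, Cd63 and Itgax are open symbols.

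Against WT livers, the treated livers kept a raised level of most markers at 12-weeks. Of the 7, 6 were called higher, where 13.6% of the genes tested were called higher, and the median log2 fold change was 3.83 (all genes 0.06). The values were 8.87 ± 0.95 (SE, adjusted p = 0.000121) for Gpnmb, 5.54 ± 0.58 (SE, adjusted p = 9.49e-05) for Trem2, 4.55 ± 0.33 (SE, adjusted p = 1.93e-06) for Lgals3, 3.83 ± 0.79 (SE, adjusted p = 0.00425) for Itgax, 3.78 ± 0.39 (SE, adjusted p = 9.49e-05) for Cd63 and 1.72 ± 0.44 (SE, adjusted p = 0.00913) for Cd9. Spp1 was at 0.75 ± 0.50 (SE, adjusted p = 0.242) and not called. Its 3 KOT livers held 45.5 to 53.8 CPM against 20.1 to 40.0 CPM in WT livers. By TPM, the livers overlapped (20.3 to 29.2 against 14.3 to 25.8). Cd9 was no longer called without WT mouse 3 (1.57, adjusted p = 0.0511). With limma on log2(TPM + 1), Cd9 (1.01, adjusted p = 0.0521) and Itgax (0.44, adjusted p = 0.441) were not called. This scale understates the change of low genes such as Itgax, whereas Cd9 was not low (25.4 TPM in WT livers), and the cause of its lower value was not tested.

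At 34-weeks, 3 of 7 markers were still called higher in KOT than in WT livers, where 0.131% of the genes tested, or 19 genes, were called higher. These 3 were Gpnmb (7.01 ± 0.86, SE, adjusted p = 0.00147), Trem2 (2.92 ± 0.52, SE, adjusted p = 0.0259) and Lgals3 (2.14 ± 0.29, SE, adjusted p = 0.00297), and none of them overlapped between the groups. No overlap with a higher KOT group was seen for 4 of 7 markers and for 4.78% of the genes tested. In terms of mean CPM, Gpnmb was 132-fold, Trem2 7.75-fold and Lgals3 4.41-fold the WT level. The size of the Gpnmb difference rests in part on KOT mouse 9 (121 CPM), without which its log2 fold change was 5.82 and still called (adjusted p = 0.00212). Cd63 was at 1.45 ± 0.36 (SE, adjusted p = 0.207), and its livers did not overlap either (20 to 28.8 against 7.61 to 11.2 CPM). Itgax (1.56 ± 0.61, SE, adjusted p = 0.691), Spp1 (0.53 ± 0.50, SE, adjusted p = 0.965) and Cd9 (-0.10 ± 0.42, SE, adjusted p = 0.994) overlapped WT livers. The call for Trem2 was lost in 5 of the 6 fits that left out a liver, without WT mouse 1 (2.69, adjusted p = 0.107), WT mouse 2 (3.22, adjusted p = 0.0768), WT mouse 3 (2.92, adjusted p = 0.201), KOT mouse 9 (2.62, adjusted p = 0.129) or KOT mouse 12 (2.96, adjusted p = 0.0552). For Lgals3, it was lost without WT mouse 3 (2.01, adjusted p = 0.052). When only these groups were fitted, Gpnmb (7.02, adjusted p = 0.186) and Trem2 (2.94, adjusted p = 0.141) were not called and Lgals3 was, and with DESeq2 Cd63 was called (1.45, adjusted p = 0.0182).

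The lists of genes around the markers differed in how many members were called in KOT over WT livers. Of the pan-macrophage genes, 6 of 8 were called higher in KOT than in WT livers at 12-weeks, with the lysozyme gene Lyz2 at 4.43, and 0 of 8 at 34-weeks (summed level 248 to 660 CPM against 167 to 303 CPM). Of the other lipid-associated macrophage genes, 10 of 16 were called higher at 12-weeks and 2 of 16 at 34-weeks, namely Mmp12 (2.15) and the fatty acid binding protein Fabp5 (2.46). Mean Fabp5 was lower at 34-weeks than at 12-weeks in WT livers (20.6 against 89 CPM) and in KOT livers (113 against 226 CPM). In the TREM2 group the counts were 5 of 9 and 0 of 9, and Tyrobp was at 3.28 and 0.47. For recruited monocyte genes they were 3 of 6 and 0 of 6, and for cholangiocyte genes 0 of 6 and 0 of 6. For dendritic cell genes they were 3 of 7 and 0 of 7, and for platelet genes 2 of 5 and 0 of 5. For stellate cell genes they were 3 of 8 and 0 of 8, and for T and NK cell genes 2 of 5 and 1 of 5. Of all genes tested, 13.6% were called higher at 12-weeks and only 0.131% at 34-weeks. None of the 5 relatives of Trem2 was called at either time, and of the 7 osteopontin receptor genes 1 was higher and 1 lower at 12-weeks and 0 were called at 34-weeks. The MiT/TFE factors were not called in either comparison with WT (list median -0.30 and 0.22), and all 4 were lower in KOT than in KO livers at 12-weeks. Of 10 resident Kupffer cell genes, 3 were called higher and 1 lower than in WT livers at 12-weeks (list median 1.08), and 0 were called at 34-weeks. The lower gene was Cd163 (-3.54 at 12-weeks and -0.80 at 34-weeks). Relative to the pan-macrophage list, KOT livers were above WT livers by 6.81 and 5.93 for Gpnmb, 4.24 and 2.57 for Trem2, 2.75 and 1.76 for Lgals3 and 1.94 and 1.08 for Cd63 (log2, without overlap). Itgax was above by 1.94 without overlap at 12-weeks and by 1.22 with overlap at 34-weeks. Spp1 went the other way at 12-weeks, where it lay below WT livers by this measure without overlap (-0.99), and it was at 0.055 with overlap at 34-weeks. For Cd9, the differences were -0.091 and -0.50 with overlap. Against KO livers, the median difference of the 7 log2 ratios was -1.95 at 12-weeks and -2.50 at 34-weeks. With Cd68 alone as the reference, it turned to 0.58 at 12-weeks and was -0.59 at 34-weeks. The log2 fold change of Cd68 itself was -4.35 and -4.28.

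Between the time points, none of the 7 markers was called in WT livers or in KO livers. In WT livers, 0.323% of the genes tested were called either way and 2 of 7 markers had an unadjusted p under 0.05, namely Itgax (2.29 ± 0.83, SE, adjusted p = 0.388) and Lgals3 (0.92 ± 0.30, SE, adjusted p = 0.287), in the edgeR test. In KO livers, 0.495% were called and 0 of 7 markers had an unadjusted p under 0.05, with log2 fold changes from -0.30 for Trem2 to 0.42 for Spp1. The KO livers labelled 34-weeks were not all taken at that time, so the interval between the KO groups is not known. With DESeq2 and with limma, the number of markers called was also 0 of 7 in WT livers and in KO livers. In KOT livers, 4 of 7 markers were called lower at 34-weeks than at 12-weeks, where 14.5% of the genes tested were called lower. They were Trem2 (-2.13 ± 0.46, SE, adjusted p = 0.00234), Cd63 (-1.78 ± 0.36, SE, adjusted p = 0.00185), Lgals3 (-1.49 ± 0.28, SE, adjusted p = 0.00158) and Cd9 (-1.37 ± 0.43, SE, adjusted p = 0.0169). Gpnmb (-0.90 ± 0.63, SE, adjusted p = 0.251), Spp1 (0.02 ± 0.50, SE, adjusted p = 0.979) and Itgax (0.01 ± 0.58, SE, adjusted p = 0.987) overlapped between the times. Without KOT mouse 9 of 34-weeks, Gpnmb was called (-2.09, adjusted p = 0.0205) and Cd9 was not (-1.07, adjusted p = 0.082). Cd9 was also not called without KOT mouse 10 (-1.25, adjusted p = 0.058) or mouse 11 of 12-weeks (-1.22, adjusted p = 0.051), or without KOT mouse 11 of 34-weeks (-1.23, adjusted p = 0.063). The calls depended on the scale as well. With total counts, Lgals3 (-0.87, adjusted p = 0.0256) and Cd9 (-0.74, adjusted p = 0.135) were not called. With limma on log2(TPM + 1), Lgals3 (-0.37, adjusted p = 0.347), Cd63 (-0.63, adjusted p = 0.113) and Cd9 (-0.46, adjusted p = 0.315) were not called, and Trem2 was the 1 marker that was (-1.04, adjusted p = 0.0188).

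Whether a difference changed between the time points was tested with interaction terms. For KO against WT, 0 of 7 markers were called, where 0.0619% of the genes tested were called either way. For KOT against WT, 4 of 7 markers had a lower difference at 34-weeks (Trem2, Cd9, Lgals3 and Cd63, log2 values from -2.63 to -1.82), where 9.83% of the genes tested were called lower. All 4 were lost when only the groups compared were fitted (adjusted p from 0.0549 to 0.0852), without WT mouse 3 of 12-weeks (0.054 to 0.115) and without KOT mouse 9 of 34-weeks (0.0538 to 0.113), although the differences stayed negative. With limma on log2(TPM + 1), only Lgals3 was called (-1.42, adjusted p = 0.048), and with total counts Trem2 (adjusted p = 0.0586) and Cd9 (adjusted p = 0.114) were not called.

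Among the 6 KOT livers, the vector transcript and the markers can be set side by side. At 12-weeks, KOT mouse 12 had the highest hLIPA level (2631 CPM) and the lowest level of every marker, with a median of 4.29% of the KO mean over the 7 markers. Mice 10 and 11, with 1577 and 907 CPM of hLIPA, had medians of 8.86% and 7.31%. At 34-weeks, mouse 11 had 2746 CPM of hLIPA and a median of 2.89%, mouse 9 had 1316 CPM and 4.44%, and mouse 12 had 523 CPM and 3.07%. Mouse 12 had the lowest hLIPA level of all treated livers and, together with it, the lowest Gpnmb (0.353% of the KO mean) and the highest Cd9 (28.6%) of its group. With 3 livers at each time point, no relation was tested.

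**Figure D4:**
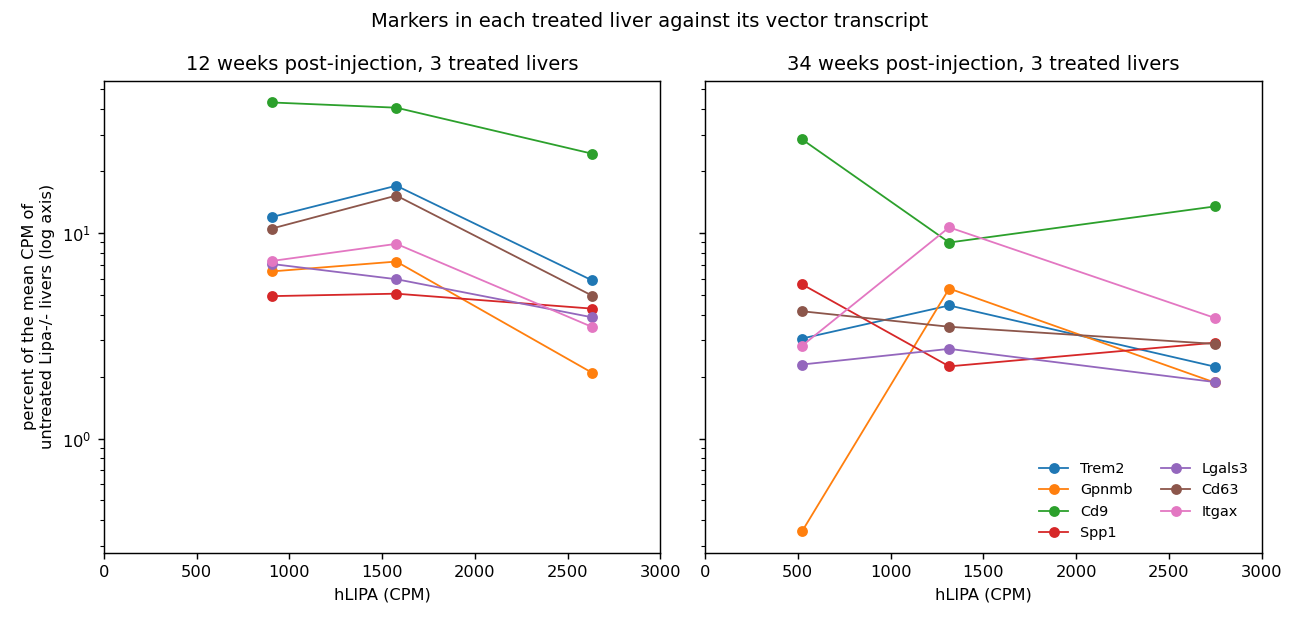
Level of each marker in the 6 KOT livers as a percentage of the mean of KO livers of the same time point (log axis) against hLIPA in CPM, with 12-weeks on the left and 34-weeks on the right and lines joining the 3 livers of a marker. Cd9 has the highest percentage in 5 of the 6 livers, and at 34-weeks Gpnmb spans the widest range, from 0.353% to 5.37%.

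The genes whose log2 CPM followed each marker most closely over the 18 livers were searched for among the 12592 genes whose mean over livers reached 1 CPM. Livers of KO mice stand apart from the others, so that these correlations hold the differences between groups, and they are given as a description. For Trem2 they were Casp1, Arl11 and Ly9 (Pearson r = 0.981 each), and for Gpnmb Mmp12 (0.978), Cd200r4 (0.968) and Clec4d (0.968). Cd63 (r = 0.995) and Lgals3 (r = 0.993) both had the GTPase gene Arl11 at the top and shared Capg. Itgax was closest to Atp6v0d2 (0.988), Hpgds (0.982) and Syk (0.981). The genes closest to Cd9 were Clic1 (0.989), Nagk (0.983) and Selenom (0.980), and those closest to Spp1 were Tagln2 (0.989), Pkm (0.986) and S100a11 (0.986). None of these last 6 genes was among the 3 closest of another marker.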

How the data were processed

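Liver RNA-seq tables of 18 mice were analysed, grouped by the labels. The authors used Salmon to assign paired-end reads to transcripts of GRCm39 and tximport to obtain values per gene, and R 4.3.0 and DESeq2 1.40.1 are named in the submitters' processing notes. The deposited estimated counts are not normalized, and 19.4% of the values are not whole. The deposited TPM values are scaled by the authors to gene length and library within each mouse. The deposited effective lengths, in bases, were used for one alternative, and the table of the authors' own comparisons (fold changes and p values) was not used.

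Counts were rounded. Genes with more than 100 reads over all livers were tested in R 4.3.3 with edgeR 4.0.16 (TMM factors, 1 quasi-likelihood fit of 6 group means, 12 residual degrees of freedom, two-sided, Benjamini-Hochberg over 14533 genes, 11 comparisons). For single values of 3 livers against 3, the smallest p of an exact permutation test is 0.1, so none was run. For a gene without reads, an expected level of up to 3 reads was taken as possible at this depth, or 0.0946 to 0.291 CPM. Standard errors were derived from the F statistic. The markers, the lists of cell type and partner genes and the tests were chosen with earlier results of these data known. The text names the 7 markers, genes of the lists, Lipa, hLIPA and the 3 genes most like each marker. Alternatives were DESeq2 1.42.0, limma 3.58.1 on log2(TPM + 1), other scaling, filters, thresholds, gene length offsets, a block for the mouse number, fits of the groups compared and each liver left out. The methods were tested on simulated data. Promoters are RefSeq sequences of GRCm38.p6, placed on GRCm39 by exact match, and gene positions follow GENCODE. All 21 lists are described in the text.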

Additional observations from a re-analysis of the deposited data

Results flagged for a closer look

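The difference between KOT and WT livers itself changed between 12- and 34-weeks for 4 of the 7 markers, by the interaction term of the edgeR fit, in which 9.83% of the genes tested were called lower. The interaction was -2.63 ± 0.75 (SE, adjusted p = 0.0301) for Trem2, -2.41 ± 0.41 (SE, adjusted p = 0.0168) for Lgals3, -2.32 ± 0.51 (SE, adjusted p = 0.0237) for Cd63 and -1.82 ± 0.60 (SE, adjusted p = 0.0455) for Cd9 on the log2 scale. For Itgax (-2.28 ± 1.02, adjusted p = 0.115), Gpnmb (-1.87 ± 1.19, adjusted p = 0.257) and Spp1 (-0.22 ± 0.70, adjusted p = 0.843), it was not called. All 4 calls were lost without WT mouse 3 of 12-weeks (adjusted p from 0.054 to 0.115) and without KOT mouse 9 of 34-weeks (0.0538 to 0.113), and 1 to 2 remained without WT mouse 1 of 12-weeks, KOT mouse 10 of 12-weeks, WT mouse 1 of 34-weeks or KOT mouse 11 of 34-weeks. The same interaction for KO livers was called for 0 of 7 markers with edgeR, and likewise for 0 of 7 with DESeq2 or limma. In the edgeR test, 2 of 7 had an unadjusted p under 0.05, Lgals3 (-1.12 ± 0.40, adjusted p = 0.359) and Itgax (-2.11 ± 0.99, adjusted p = 0.522). Time point and study code cannot be told apart in these values, and the KO livers labelled 34-weeks were not all taken at that time.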

How the results depend on the processing

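The counts of markers called in KO over WT (7 and 7), KOT over KO at 34-weeks (7) and between the times in WT and KO livers (0 and 0) were the same under all alternatives and leave-outs. Leaving out livers gave 5 to 6 for KOT over WT and 6 to 7 for KOT over KO at 12-weeks, 1 to 3 for KOT over WT at 34-weeks, 3 to 4 for KOT livers between the times and 0 to 4 for the interaction of KOT and WT. With only the groups compared, KOT over WT at 34-weeks gave 1 and the interaction 0. For KOT livers between the times and the interaction, total counts gave 2 and 2, limma 1 and 1, and the replicate block (mouse number) 0 and 0, and at an adjusted p under 0.01 the interaction gave 0. Mouse numbers did not pair the livers (r of deviations from -0.253 to 0.46), so they share only a number. Against total counts, the median of all genes shifted by -0.863 to 0.629, and the share of higher calls went from 69.1% to 87.2% and 56.6% to 81.8% (KO over WT), 53.1% to 24.4% and 59.4% to 70.8% (KOT over WT), 39.0% to 8.92% and 40.8% to 18.5% (KOT over KO), 54.7% to 87.8% (KOT time), 46.6% to 81.3% (interaction of KOT) and 6.94% to 18.2% (KO time, 25.0% with upper quartiles, which also moved the interaction of KO from 33.3% to 44.4%). Some of these shares rest on few calls. With TMM factors, 19 genes were called higher and 13 lower for KOT over WT at 34-weeks. The numbers were 5 and 67 for KO time, and 3 and 6 for the interaction of KO.
Values that turned sign were not called. They were, with total counts, Cd9 in KOT over WT at 34-weeks (0.073), KO time for Trem2 (0.016), Cd9 (0.015), Lgals3 (0.11) and Cd63 (0.063) and the KOT interaction of Spp1 (0.26). With limma they were Cd9 in KOT over WT at 34-weeks (0.012), KO time for Trem2 (0.069), Cd9 (0.23), Lgals3 (0.27) and Cd63 (0.18), the KO interactions of Gpnmb (0.54) and Itgax (0.32) and the KOT interactions of Spp1 (0.42) and Itgax (0.22). KOT time turned for Spp1 (-0.047) and Itgax (-0.063) with DESeq2 and for Itgax with the replicate block (-0.45), and WT time for Trem2 with length offsets (-0.11). Leave-outs spanned zero for Cd9 in KOT over WT at 34-weeks (-0.70 to 0.43), WT time of Trem2 (-0.035 to 0.95) and Cd9 (-0.083 to 0.73), KO time of Gpnmb (-0.060 to 0.43), Cd9 (-0.52 to 0.11), Lgals3 (-0.36 to 0.079) and Itgax (-0.19 to 0.50), KOT time of Spp1 (-0.42 to 0.27) and Itgax (-0.79 to 0.39), and the interaction of Spp1 for KO (-0.21 to 1.30) and KOT (-0.63 to 0.026). With Cd68 alone, the median log2 ratios were 1.22 and 0.94 (KO over WT), 0.51 (KOT over WT, 34-weeks), 0.58 (KOT over KO, 12-weeks) and -0.59 (34-weeks). Those of Spp1 turned to -1.57 and -0.063 in KO over WT and -0.65 in KOT over WT at 34-weeks. In KOT over KO at 12-weeks Trem2 turned to 1.20, Gpnmb to 0.054, Spp1 to 0.45, Lgals3 to 0.28, Cd63 to 1.01 and Itgax to 0.58, and at 34-weeks Cd9 to 1.55 and Itgax to 0.042. With TPM + 0.5, Itgax in KOT over WT at 12-weeks turned to -0.36. The causes were not tested. Depth limits Gpnmb, Itgax and Trem2 in WT livers, with 13, 12 and 34 reads per group at 12-weeks.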
